A study of Homo sapiens with 6 samples.

Results

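The genes of ribosomal proteins and translation factors were examined in a list of RNA regions bound by AGO2 in 22RV1, a human cell line established from prostate cancer. Members were all peaks whose gene name starts with RPL or RPS and a digit (the S6 kinases RPS6K left out), or with RPLP, MRPL, MRPS, EIF or EEF. The rule used names alone, and it found 83 of 7772 peaks, in 49 of 3659 named genes. Cells were transfected in suspension with 20 nM of miR-194 mimic in 3 libraries and of negative control in the other 3, and ultraviolet crosslinking followed 24 h later, before AGO2 and its RNA were immunoprecipitated (HITS-CLIP). What was deposited is 1 list of merged peaks, each with a score between 5 and 1270 and none with a value for a library or group. Which libraries were merged is not stated. Mimic and control cells could therefore not be compared, read depth is unknown, and no p-value is given. The score is the authors' own and was used for ranking and description alone. Intervals (95%, exact Clopper-Pearson) reflect counting error alone, and neighbouring peaks of a gene share their transcript.

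AGO2 carries microRNAs, short RNAs that pair with messenger RNAs through a seed at their 5' end and lower their stability or translation. Most known sites lie in 3' UTRs, and sites in coding sequence usually act more weakly. Cytosolic ribosomes are built from proteins of the large (RPL) and small (RPS) subunit, whose messengers are among the most abundant in growing cells and have short untranslated regions. Mitochondria have their own ribosome (MRPL, MRPS). Initiation factors (EIF) bring the small subunit and the initiator tRNA to the start codon, and elongation factors (EEF) move the ribosome along the message.

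The sequences below are those of the 10 member coding exon peaks with a full match to the miR-194 seed, out of 45 member coding exon peaks. The microRNA is printed 5' to 3' with its seed, bases 2 to 8, in capitals. The messenger windows of 30 bases come from GENCODE 29 transcripts, placed by the bases that the deposited table lists for each peak, and their capitals mark the match to the seed. An 8mer match is CTGTTACA, a 7mer-m8 is CTGTTAC and a 7mer-A1 is TGTTACA, and any of these 3 is called a 7mer match below. Each listed site occurred once in the matched transcript and lay within its coding sequence.
miR-194-5p: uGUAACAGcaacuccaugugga
RPL9, 7mer-A1: cagaacatgatcaagggTGTTACActgggc
RPL6, 8mer: gagaaggttctcgcaaCTGTTACAaaacca
RPS6, 8mer: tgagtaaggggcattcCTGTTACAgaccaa
RPL31, 7mer-m8: ttggttacctatgtacCTGTTACcactttc
MRPL49, 7mer-m8: tcagtttgtggagcgcCTGTTACcggctac
MRPL44, 8mer: tgcagttattggagccCTGTTACAgagcag
MRPS30, 7mer-m8, upstream site: aaactgcagatccttgCTGTTACggtcaca
MRPS30, 7mer-m8, downstream site: tcacacccagtttcatCTGTTACctgacaa
MRPL10, 7mer-m8: cgctatggctccaaggCTGTTACccgccac
EIF4B, 7mer-A1: ggaaacctaccctatgaTGTTACAgaagag
EIF5B, 7mer-m8: tcagattcgaggcctcCTGTTACctcctcc
The 11 sites lay in all 3 reading frames, with the first T of TTAC at codon base 1 in 4 sites, base 2 in 5 and base 3 in 2. The matches are therefore not 1 shared run of codons.

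Peaks of these genes lay mostly in coding exons. Coding exons held 45 of 83 member peaks (54.2%, 42.9 to 65.2%), while 33.0% of all peaks lay there. Only 8 member peaks (9.64%, 4.25 to 18.1%) were in 3' UTRs, where 23.0% of all peaks lay. Members are chosen by gene name, and all peaks include intergenic ones. Among peaks of other named genes 35.9% lay in coding exons and 25.3% in 3' UTRs. Introns held 14 member peaks (16.9%), against 20.4% of all peaks. The rest comprised 8 promoter or start peaks, 5 transcript end peaks, 2 in 5' UTRs and 1 in a non-coding transcript. The families differed in what they had outside the coding exons. The prefixes also catch 8 genes that are no ribosomal protein or translation factor as such, with 16 peaks. These are the regulatory kinases EIF2AK1, EIF2AK4 and EEF2K, the EIF4E-binding repressor EIF4EBP2, the EIF4E transporter EIF4ENIF1, RPS19BP1, the pseudogene RPL13AP5 and the readthrough transcript EEF1E1-BLOC1S5. None of the 18 peaks of cytosolic ribosomal protein genes without these names was annotated as 3' UTR, a count of 0 that allows a share of up to 16.7%. Of 25 mitochondrial ribosomal protein peaks 5 were (20.0%). Transcript end is a separate class in the deposited annotation. The transcript end peaks of RPL39 and RPS15 are therefore not counted here, whether or not they overlap a 3' UTR. The 3' UTRs of the cytosolic genes are short, with a median of 77 nt in 53 large subunit genes and 59 nt in 33 small subunit genes, against 334 nt in 77 mitochondrial ones and 709 nt over all protein-coding genes. The EIF names had 17 of 29 peaks in coding exons and 8 in introns, and without the names caught by prefix alone 12 of 22 were in coding exons. These shares were not tested against each other.

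**Figure D1:**
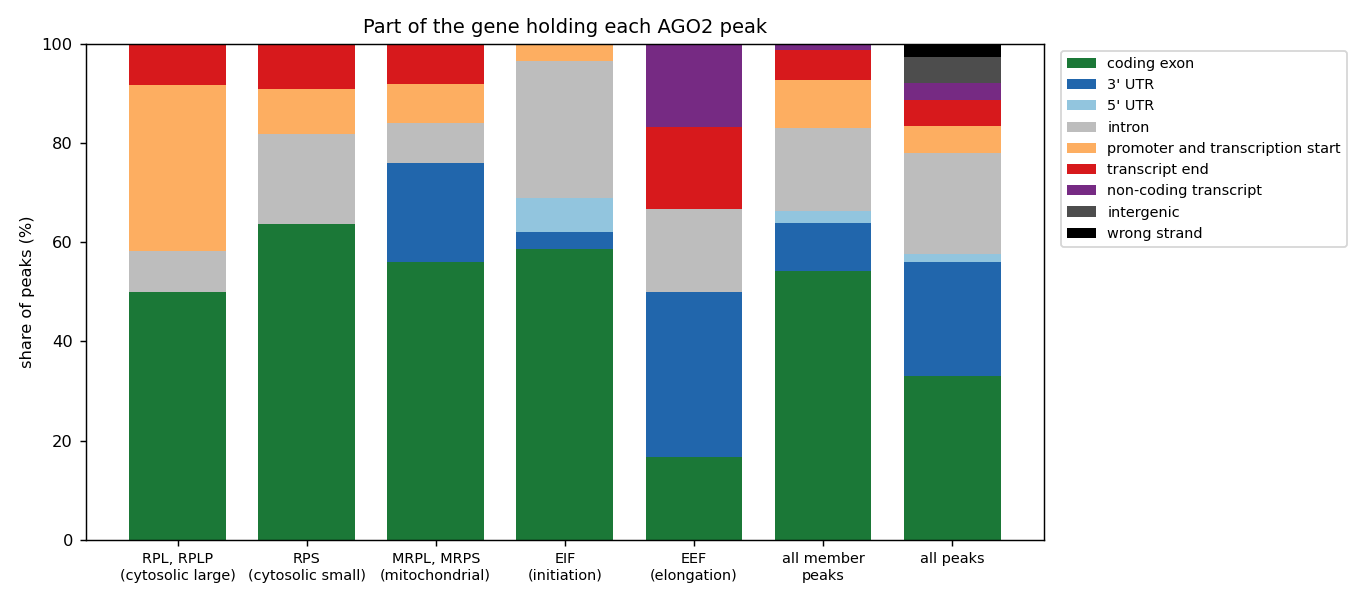
Share of peaks (%) in each part of the gene, for the 5 families, all 83 member peaks and all 7772 peaks. Coding exons hold 54.2% of member peaks and 33.0% of all peaks, and the cytosolic ribosomal protein bars have no 3' UTR segment.

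A miR-194 7mer match was no more common in member peaks as a whole than in the list. It was present in 11 of 83 member peaks (13.3%, 6.81 to 22.5%), and in 13.4% of all peaks. The best match was an 8mer in 3 peaks, a 7mer-m8 in 5 and a 7mer-A1 in 3, and a further peak held a 6mer (TGTTAC) and 3 held variants without it. All but 1 of the 11 matched peaks lay in coding exons, where 10 of 45 member peaks held a match (22.2%, 11.2 to 37.1%), beside 15.0% of all coding exon peaks. No match was listed in the 8 peaks in 3' UTRs (0 of 8 allows up to 37.5%) or in the 14 intron peaks (up to 21.4%). The listed runs of bases had another length in 3' UTR peaks and another start in intron peaks than in coding exon peaks, so match shares are not fully comparable between these parts. By gene, 10 of 49 members had a match in at least 1 peak, beside 23.6% of all named genes.

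By family the counts of matches were small. Cytosolic large subunit genes had a match in 3 of 12 peaks, the RPS names in 1 of 11, the mitochondrial ribosome in 5 of 25 and the EIF names in 2 of 29. The mitochondrial count includes a peak named MRPL49 that lies on the strand opposite to that gene. The 6 peaks of EEF names held none, which allows a share of up to 50.0%, and only 2 of those peaks, both in EEF1A2, belong to an elongation factor. The intervals are wide, 5.49 to 57.2% for the large subunit and 0.846 to 22.8% for the EIF names, and both hold the 13.4% of all peaks. None of the 16 peaks of the names caught by prefix alone held a 7mer match (up to 18.8%), and among the other 67 peaks the share was 16.4%.

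Scores of member peaks were centred where those of the whole list were, with a longer upper tail. The median was 15 (interquartile range 12 to 39) for members and 15 (12 to 23) for all peaks. A score of at least 23, the 75th percentile of the list, was reached by 31 member peaks (37.3%, 27.0 to 48.7%), beside 26.5% of all peaks. Of these 31 peaks 12 were of cytosolic ribosomal proteins, 8 of mitochondrial ones, 9 of EIF names and 2 of EEF names. Large subunit peaks had a median of 58 (range 11 to 1270), RPS names 15 (8 to 311), mitochondrial ribosomal peaks 13 (6 to 475), EIF names 15 (6 to 198) and EEF names 13.5 (12 to 45). The score of 475, also among the 8 mitochondrial peaks above, is of the MRPL49 peak on the opposite strand. Without the names caught by prefix alone the small subunit median was 47 (12 to 311, 7 peaks), since 4 of the 11 RPS peaks are of RPS19BP1. That median rests on RPS6, whose peaks scored 311, 265, 117 and 47, while the rest scored 12, 12 and 21. With only the highest peak of each of the 5 RPS names the median was 15. Also without the names caught by prefix alone, initiation factors had a median of 14.5 and a highest score of 58 (22 peaks). The large subunit then had a median of 59 (11 peaks), and the 2 elongation factor peaks scored 14 and 12. In coding exons alone the median score was 31 for members and 17 for all peaks, whereas member peaks elsewhere had a median of 13 and all peaks elsewhere 14.

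**Figure D2:**
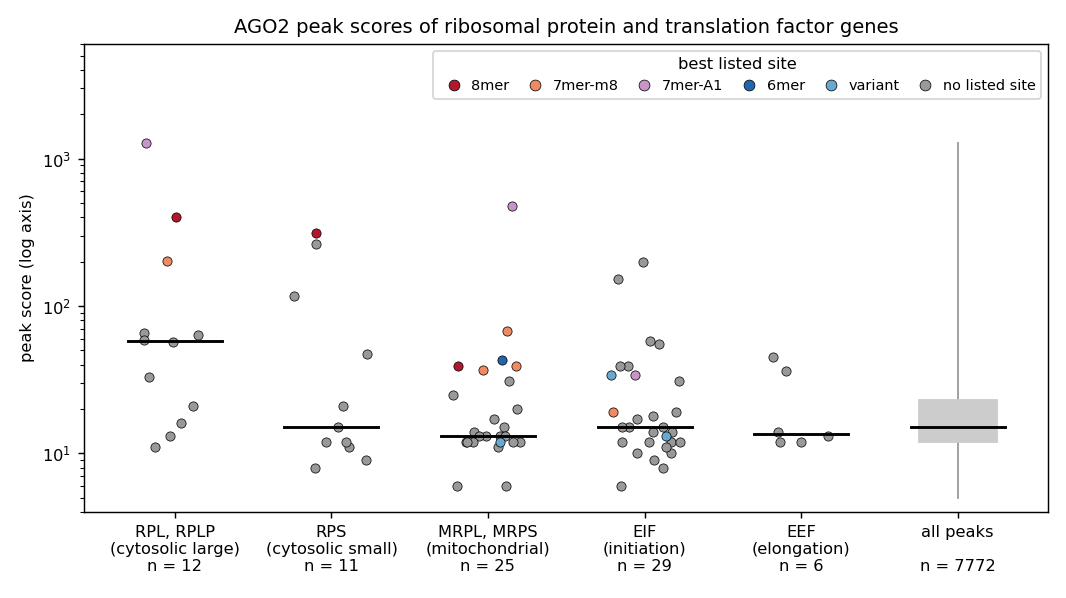
Score of each member peak (log axis) by gene family, coloured by the best listed miR-194 site, with family medians as black lines. The right column shows all 7772 peaks (line: range; box: quartiles; bar: median of 15); RPL9 stands highest at 1270.

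Member peaks with a 7mer match had a median score of 68 (38 to 355, 11 peaks), and those without one 14 (12 to 31.5, 72 peaks). Over all peaks the medians were 31 (18 to 66) with a match and 14 (12 to 20) without. Among member coding exon peaks the medians were 53.5 with a match and 15 without. In 6 member genes a peak with a match stood beside peaks without one, and the matched peak was the highest in 6 of 6, beside 75.1% of the 550 such genes in the whole list. Within coding exons it was the highest in 5 of 5 member genes, beside 84.3% of all such genes. Higher scores at matched peaks were thus seen across the whole list.

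RPL9, a protein of the large subunit, had the highest score of the whole list, 1270, in its only peak. This peak lay in exon 3 of 7 at chr4:39459207-39459301 (hg19, minus strand). Its 7mer-A1 site was near the 3' edge of the peak, 42.5 nt from the centre, and a match on the opposite strand was also listed 63 nt upstream. RPL6, another large subunit protein, scored 399 in the peak with its 8mer (exon 3 of 7, chr12:112846029-112846191, minus strand) and 33 in its other peak, in exon 2, which lay 33 nt away and had no site. RPL31 scored 202 in the peak with a 7mer-m8 (exon 4 of 5, chr2:101622476-101622552, plus strand). The adjoining RPL31 peak, 2 nt upstream and without a site, scored 59. In both of these genes with a pair of peaks the matched peak was the higher.

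RPS6, the small subunit protein that S6 kinases phosphorylate, had 4 peaks, all in coding exons. The peak with its 8mer scored 311 (exon 3 of 6, chr9:19378722-19378880, minus strand). Peaks that adjoined it within 4 nt on either side scored 117 and 47, and a separate peak in exon 4 scored 265 without any listed site. A high score in RPS6 was thus not limited to the place of the miR-194 match. In the large subunit, RPL10 (66 and 11) and RPL13A (64) had their peaks at the annotated transcription start, and RPL39 (57) at the transcript end, all without a site. RPL7 had a coding exon peak of 21 without a site, and RPL35 an intron peak of 13. In the small subunit, RPS15 had a peak of 12 at its transcript end, RPS21 had a peak of 21 at its start on the opposite strand, and RPS4Y1 had an intron peak.

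Copies of ribosomal protein genes limit these assignments. GENCODE 29 names 17 pseudogenes after RPL9, 12 after RPL6, 30 after RPL31 and 13 after RPS6. The 30-base window of the RPL9 site was identical in transcripts of 7 other annotated genes, that of RPL31 in 7, that of RPS6 in 4 and that of EIF4B in 3. The windows of RPL6, of the mitochondrial ribosomal genes and of EIF5B were found in no other annotated gene. The sources used here do not give how reads with several matching places were treated, and the part of such reads in these scores was not tested.

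**Figure D3:**
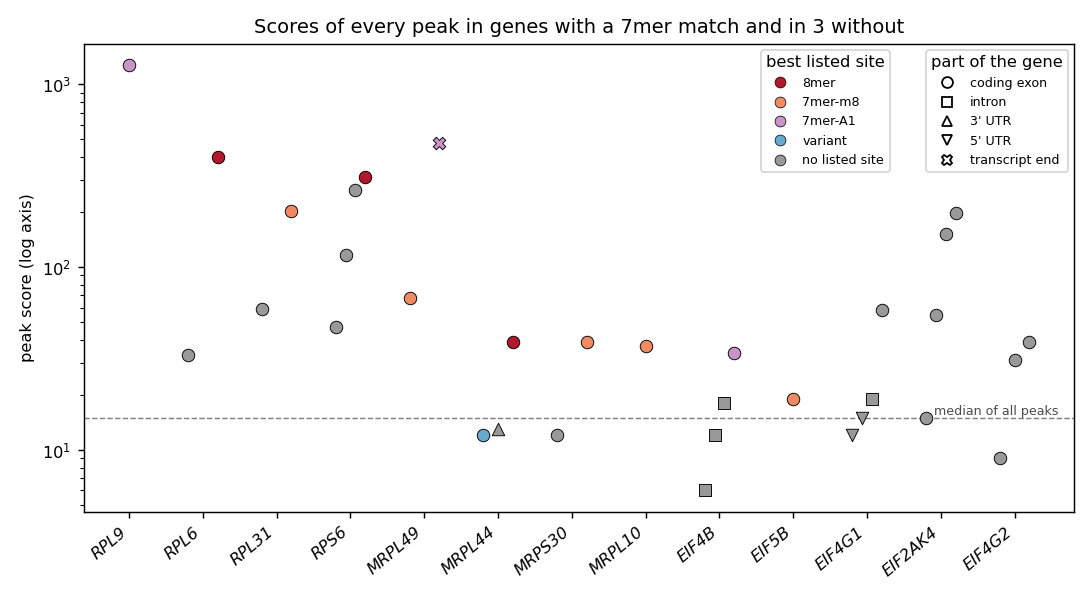
Score of every peak (log axis) in the 10 genes with a 7mer match and in 3 without one, EIF4G1, EIF2AK4 and EIF4G2; colour gives the best listed site and shape the part of the gene. Matched peaks are the highest of RPL6, RPL31, RPS6, MRPL44, MRPS30 and EIF4B, while EIF2AK4 reaches 198 without a site.

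Mitochondrial ribosomal genes had matches at lower scores. MRPL49 scored 68 in exon 2 of 4 with a 7mer-m8 (chr11:64891997-64892144, plus strand). MRPL44 scored 39 with an 8mer in exon 2 of 4 (chr2:224824653-224824719, plus strand), against 13 in its 3' UTR and 12 in another coding peak that held a variant site. MRPS30 scored 39 in exon 4 of 5 (chr5:44813209-44813303, plus strand), in the only member peak with a pair of 7mer matches on its strand, 25 nt apart. Its other peak, 48 nt downstream, scored 12. MRPL10 scored 37 with a 7mer-m8 in exon 3 of 6 (chr17:45905938-45906036, minus strand). MRPL15 held a 6mer in a coding exon peak that scored 43, and its 3' UTR peak without a site scored 17. MRPL4, with 5 peaks, scored 31, 15 and 6 in coding exons and 25 and 13 in its 3' UTR, and had no site in any. The other mitochondrial genes, MRPL3, MRPL11, MRPL12, MRPL47, MRPS17, MRPS18B, MRPS25, MRPS27 and MRPS28, had no 7mer match, and their peaks scored between 6 and 20.

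The second highest member score, 475, belonged to a peak whose strand differs from that of its named gene. That peak lies at the transcript end of MRPL49 (chr11:64894812-64895014) but on the minus strand, and MRPL49 is a plus-strand gene in GENCODE. It held a 7mer-A1 site listed as tgTGTTACA. The neighbouring minus-strand gene SYVN1, a ubiquitin ligase of the endoplasmic reticulum, holds these 9 listed bases in its transcripts, and no peak carried the name SYVN1. In all, 4 of 13 member peaks at promoters or transcript ends were on the strand opposite to the named gene, in MRPL49, MRPL12, MRPL47 and RPS21, beside 38.6% of all such peaks. Without these 4 peaks a match was present in 12.7% of member peaks, and the median score with a match was 53.5.

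Among initiation factors 2 genes had a match, in 2 of the 17 coding exon peaks of EIF names or 2 of 12 without the regulatory kinases, beside 15.0% of all coding exon peaks. EIF4B, the cofactor of the helicase that unwinds messengers, had a 7mer-A1 in its coding exon peak, which scored 34 (exon 3 of 15, chr12:53412641-53412790, plus strand). Its 3 intron peaks scored 18, 12 and 6. EIF5B, the GTPase that joins the ribosomal subunits, scored 19 with a 7mer-m8 (exon 17 of 24, chr2:100007096-100007168, plus strand). These were the only 7mer matches among initiation factors. EIF4G1, the scaffold of the cap-binding complex, scored 58 in coding exon 12 of 32 (chr3:184040569-184040683, plus strand), 19 in the intron just upstream, and 15 and 12 in its 5' UTR, all without a site. Its relative EIF4G2, which supports cap-independent initiation, had 3 adjoining coding peaks scoring 39, 31 and 9. Among subunits of the EIF3 complex, which binds the small ribosomal subunit, EIF3H scored 39, EIF3M 34 with a variant site, EIF3L 17 and EIF3K 12.

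The highest peaks of the EIF and of the EEF names had no listed miR-194 site. Among EIF names the highest belonged to EIF2AK4, a name caught by prefix alone. It is the GCN2 kinase that senses amino acid shortage. Its coding peaks scored 198 (exon 31 of 39, chr15:40313101-40313228, plus strand), 152 and 55 (both in exon 30) and 15 (exon 33). Among EEF names the highest was EEF2K, the kinase that inhibits elongation factor eEF2, also caught by prefix alone. EEF2K scored 45 and 36 in adjoining 3' UTR peaks and 12 in a coding exon. EEF1A2, which delivers tRNAs to the ribosome, scored 14 in an intron and 12 at its transcript end. RPS19BP1 had 4 peaks, scoring 15, 11, 9 and 8. EIF2A scored 13 with a variant site and 10 without, and EIF2AK1, EIF2S3, EIF4G3, EIF5A and EIF6 had 1 peak each, scoring between 10 and 14. EIF4EBP2 scored 15 in its 3' UTR, EIF4ENIF1 scored 8 in an intron, and the readthrough EEF1E1-BLOC1S5 scored 13.

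Adjoining peaks were about as frequent among members as among all named peaks. Of the 83 member peaks 35 lay within 50 nt of another peak of the same gene and strand, forming 16 groups, beside 44.0% of all named peaks. The smallest gap, 2 nt, was found in RPL31, RPS6, EIF4G2, EIF2A and MRPL4. Counting each group as 1 region leaves 64 regions, of which 17.2% held a match.

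**Figure D4:**
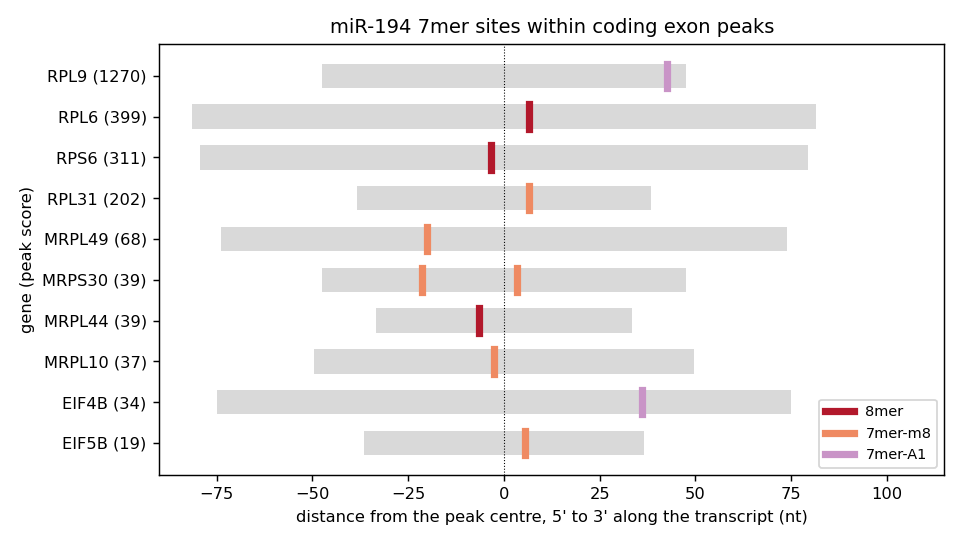
Place of the 11 miR-194 7mer sites (coloured ticks) in the 10 member coding exon peaks, drawn to scale as grey bars centred on the peak, 5' to 3' along the transcript (nt). Of the 11 sites 8 lie within 20 nt of the centre, and those of RPL9 and EIF4B lie 42.5 and 36 nt downstream of it.

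Within the coding peaks, 8 of 11 sites lay within 20 nt of the peak centre, with a median distance of 6.5 nt and a range of 2.5 to 42.5 nt. The farthest were those of RPL9 and EIF4B, both of the 7mer-A1 class. These 10 peaks were 67 to 163 nt long. No such distances were taken for matched peaks of other genes. The count is therefore not shown to be a trait of these families. Along the coding sequence the sites were spread, from 15.1% of its length in MRPL10 to 87.2% in RPL31.

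In the cytosolic ribosome, coding exon peaks and coding 7mers were found in almost the same genes. In GENCODE 29, with 1 transcript per gene, 5 of the 86 cytosolic ribosomal protein genes hold a miR-194 7mer in the coding sequence. Of these, RPL6, RPL9, RPL31 and RPS6 had coding exon peaks and RPL10L did not. Of the 81 genes without a coding 7mer only RPL7 had a coding exon peak. These 5 genes with peaks are too few to measure a share closely, and whether RPL10L, a paralog of RPL10 known from testis, is expressed in 22RV1 was not measured.

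Over all families, without the 8 names caught by prefix alone, 16 of 219 genes (7.31%) hold a 7mer in the coding sequence, beside 10.9% of all protein-coding genes. A coding exon peak with a match was listed for 10 of these 16 (62.5%, 35.4 to 84.8%), beside 15.9% of all protein-coding genes with a coding 7mer. Counting any coding exon peak, the share was 11 of 16 (68.8%, 41.3 to 89.0%) in members with a coding 7mer and 13 of 203 (6.40%, 3.45 to 10.7%) in members without one. For all protein-coding genes these shares were 24.8% with a coding 7mer and 5.97% without. The members with a coding 7mer but no matched peak were EEF1D, EIF2D, EIF3M, EIF4E, MRPL36 and RPL10L. A 3' UTR 7mer was present in 20 member genes (9.13%, beside 14.1% of all protein-coding genes), among them EIF4E, EIF5A2, RPL4 and RPS23. None of the 20 had a 3' UTR peak with a match (0 of 20 allows up to 15.0%), beside 10.1% of all such genes. These 3' UTR counts depend on the transcript used. Its 3' UTR was 1395 nt in RPL4 and 2754 nt in RPS23, against family medians of 77 and 59 nt. Other transcripts were not tried for 3' UTRs. Messenger abundance is not in the table, so its part in these shares was not tested.

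**Figure D5:**
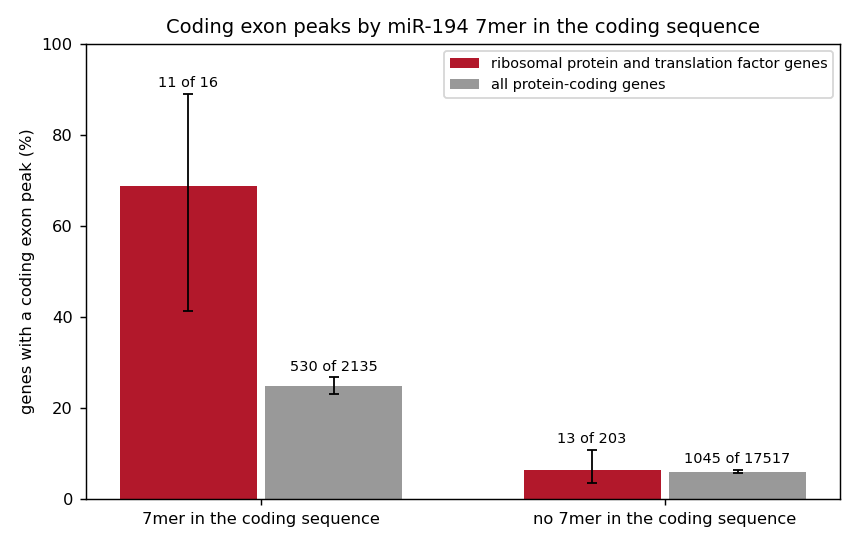
Share of genes (%) with a coding exon peak, for genes with and without a miR-194 7mer in the coding sequence, in the member families (red, left) and in all protein-coding genes (grey, right); bars are 95% Clopper-Pearson intervals. With a coding 7mer the share is 68.8% in members and 24.8% in all genes, and without it 6.40% and 5.97%.

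Most genes of the families had no peak. Of current protein-coding symbols that the name rule finds in RefSeq, without the names caught by prefix alone, a peak was listed for 8 of 53 large subunit, 4 of 33 small subunit, 15 of 77 mitochondrial, 13 of 48 initiation and 1 of 8 elongation factor genes. In all this was 41 of 219 (18.7%), beside 16.7% of all protein-coding symbols. A gene without a peak is not shown to be unbound or unexpressed.

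Other genes of the translation pathway, from a list of 59 names chosen with earlier results of these data known, had a peak in 23 cases, beside 16.7% of all protein-coding symbols. Of those 23 genes 8 had a 7mer match, beside 23.6% of all named genes. The matches were in the release factor gene GSPT1 (71, 3' UTR), the tRNA synthetase genes MARS (58, coding exon), DARS (54, 3' UTR) and EPRS (15, coding exon), the poly(A)-binding partner genes PAIP1 (55, coding exon) and PAIP2 (19, non-coding transcript), the ribosome rescue gene PELO (23, 3' UTR) and the mitochondrial factor gene GFM2 (22, coding exon). GFM2 also had coding exon peaks of 118 with a 6mer and 118 without a site. LARP1, which binds ribosomal protein messengers, scored 99 and 90 in its 3' UTR without a site. Among 10 ribosome assembly genes only NPM1 had a peak, in an intron, scoring 13.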

How the data were processed

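Per the submitters' processing notes, the reads were handled with TopHat2 2.0.9 and cutadapt 1.8.1, besides MACS2, SAMtools and FastQC, on build hg19; order and settings are not given. The authors deposited 1 score per merged peak, whose meaning and normalization are not given in the sources used here. It is not stated which of the 6 libraries entered the list or whether they were separate cultures. There were 0 columns of other samples. Coordinates are those of the deposited table, and length was taken as end minus start plus 1.

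Members were found by gene name after stripping spaces, and sites were classed from the listed bases on the peak's own strand. Members and lists were chosen with earlier results of these data known. Named genes were RPL9, RPL6, RPS6, EIF4G1, all with a 7mer match, the highest of each family, those with 3 or more peaks and those with a score of at least 23. Others were named to account for all members.

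Coding and 3' UTR 7mers were counted in 1 GENCODE 29 transcript per gene, which shares no coordinate with hg19 here. Principal transcripts came first, then the longest coding sequence, and ties went to the last transcript identifier in sorted order. Gene lists came from RefSeq (GRCh38.p14), where all 49 member symbols were found. The microRNA sequence is from RefSeq. Parsing and intervals were checked on simulated records. Scripts ran on scipy 1.17.1, pandas 2.3.3 and numpy 2.4.6 under Python 3.11.15. Limits for a count of 0 use 3 counts.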

Additional observations from a re-analysis of the deposited data

How the results depend on the processing

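Of 64 alternative values, 56 stayed within the 95% interval of the value reported (or within 1.5 times a count) and 8 did not. The share with a match was 3.61% with 8mers only and 24.4% among the 45 member peaks at or above the median score, where all peaks gave 21.9%. Of those 45 peaks 66.7% lay in coding exons, beside 39.6% of all peaks. The median score was 31 in coding exons. With only the highest peak per gene the share of elongation factor peaks in coding exons was 0%, from 3 peaks, and without the names caught by prefix alone it was 0%, from 2 peaks. Genes with a peak numbered 28 with peaks at or above the median score and 28 with coding exon peaks, instead of 49. Both counts of 28 rest on fewer peaks by construction. The share with 8mers only counts a part of the same matched peaks, so it could not rise. The only coding exon peak of EEF names, of EEF2K with a score of 12, was left out in both elongation factor settings. The cause of the other values outside the interval was not tested. Leaving out RPL9 gave a median score with a match of 53.5. No paired analysis was possible because the table holds no value per library. Alternatives with grouped neighbours, strand, transcript choice and families without prefix-only names were added after seeing the data. With 83 peaks and no read counts, shares within a family are known only within wide intervals.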

Other observations

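The peak named RPL13AP5 (score 16) lies on chromosome 19 at 49990928 to 49990999, next to the RPL13A peak that ends at 49990916, while RefSeq places the gene RPL13AP5 on chromosome 10. The deposited name and the deposited position of this peak therefore differ.

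The S6 kinase genes, left out by the name rule, had 5 peaks in 4 genes.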
